A study of Mus musculus with 24 samples.

Results

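The growth hormone, Stat5 and Igf1 axis of fasted mouse liver was followed through 8 genes: the growth hormone receptor gene Ghr, the transcription factor gene Stat5b, the feedback inhibitor genes Socs2 and Cish, the hormone gene Igf1, its circulating partner gene Igfals, and the binding protein genes Igfbp2 and Igfbp3. They were taken by gene symbol from a read-count table of 35275 genes. Each symbol matched 1 row, and all 8 passed the low-count filter in every comparison.

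The series measured poly-A selected RNA in livers of male C57BL/6 mice that were 8 to 10 weeks old, ate chow and were then fasted for 24 h. There were 24 libraries in 6 genotype groups of 4. The control group is labelled wild type, and the study's methods describe its controls as littermates with floxed Tsc1 and Cpt2 alleles. The Tsc1 L-/- group lacked Tsc1, a brake on the growth kinase complex mTORC1, in liver. The Cpt2 L-/- group lacked Cpt2, which is needed to burn long-chain fatty acids in mitochondria, in liver. The Tsc1Cpt2 L-/- group, called DKO here, lacked both genes. The PPAR-a KO group lacked Ppara, the nuclear receptor that switches on fatty acid burning in fasting, and the Cpt2L-/- Ppara KO group lacked Cpt2 in liver together with Ppara. The study's methods do not describe the groups lacking Ppara or say that the controls were their littermates. Where those groups are compared with the others, a difference of cohort cannot be told apart from one of genotype. In the study's methods the liver deletions were driven by an albumin-Cre transgene, which acts in hepatocytes, so other liver cells should keep their floxed alleles. The labels number the replicates without saying that each came from a separate animal, and p-values measure the spread between these libraries.

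Growth hormone from the pituitary binds its receptor on hepatocytes, and the receptor-bound kinase Jak2 then phosphorylates Stat5 proteins, which enter the nucleus and bind DNA. Liver Stat5 is known to drive Igf1 and Igfals, and also Socs2 and Cish, whose products shut the receptor signal down again. Igf1 leaves the liver for the blood, where most of it is held in a complex with Igfbp3 and the acid-labile subunit that Igfals encodes. Fasting is known to make the liver resist growth hormone, and Igfbp1 and Igfbp2 are binding proteins whose levels rise when food is scarce.

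Total counts ranged from 14470968 to 20371204 per library, and no pair of libraries within a group agreed within counting noise. Tsc1 was 38.5 ± 1.32 CPM (TMM-normalised read count scaled to library size, mean ± SD, n = 4) in control livers, 24.5 ± 4.56 in Tsc1 L-/- livers and 16.4 ± 1.24 in DKO livers, and Ppara was 13.2 to 90.0 CPM in the 8 libraries labelled Ppara KO against at least 138 CPM in the other libraries. Cpt2 was 98.6 ± 7.04 CPM in control livers and 91.7 ± 10.4 CPM in livers labelled Cpt2 L-/-, so these whole-gene counts did not check the Cpt2 deletion. Replicate 1 of the Cpt2L-/- Ppara KO group stood apart, with the lowest mean correlation with its own group of all 24 libraries (0.941). It held 123 CPM of Cpt2 where its other replicates had 31.4 to 39.1, and 90.9 CPM of the Ppara target Fgf21 where they had 0.974 to 6.71. Its Tsc1 was 23.8 CPM, where its other replicates had 42.4 to 50.1 and Tsc1 L-/- libraries 18.1 to 28.8. Its Fgf21 lay inside the DKO range of 54.2 to 136 CPM, while its Ppara was 90.0 CPM. Whether its label is right was not tested. Replicate 1 of the PPAR-a KO group had 94.9 CPM of Cpt2 where its other replicates had 39.8 to 51.4. Called differences of the 8 genes that rest on these libraries are given with and without them.

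Ghr, Igfals, Igf1 and the binding protein genes fell in some of the genotypes, Stat5b moved modestly in both directions, and neither Socs2 nor Cish passed edgeR's test in any comparison. Against control, 1 of the 8 genes was called in Tsc1 L-/- livers by edgeR's quasi-likelihood test at an adjusted p under 0.05, where 6.64% of all tested genes were called. It was 0 beside 4.22% without control replicate 3, and 0 beside 2.86% with all 24 libraries in 1 fit. In Cpt2 L-/- livers 3 were called beside 31% of all genes, in DKO livers 4 beside 36.4%, and in PPAR-a KO livers 3 beside 27.5% (4 beside 31.7% without replicate 1, and 3 beside 17.6% without control replicate 4). These 4 comparisons share the same 4 control libraries. DKO livers differed from Tsc1 L-/- livers in 4 of the genes, beside 32.2% of all genes, and from Cpt2 L-/- livers in 3, beside 18.3% (10.3% without DKO replicate 2). Cpt2L-/- Ppara KO livers differed from Cpt2 L-/- livers in 2, beside 13% (4.75% without Cpt2 L-/- replicate 3 to 19.4% without Cpt2L-/- Ppara KO replicate 4), and from PPAR-a KO livers in 0, beside 0.868%. In that last comparison 2 of the 8 had an unadjusted p under 0.05 by edgeR, 0 were called by DESeq2, and 2 were called when all 24 libraries entered 1 edgeR fit, beside 30.8% of all genes in that fit. The shares against control in Cpt2 L-/- and PPAR-a KO livers, 37.5% of the 8 in each, were near the 31% and 27.5% of all genes.

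**Figure D1:**
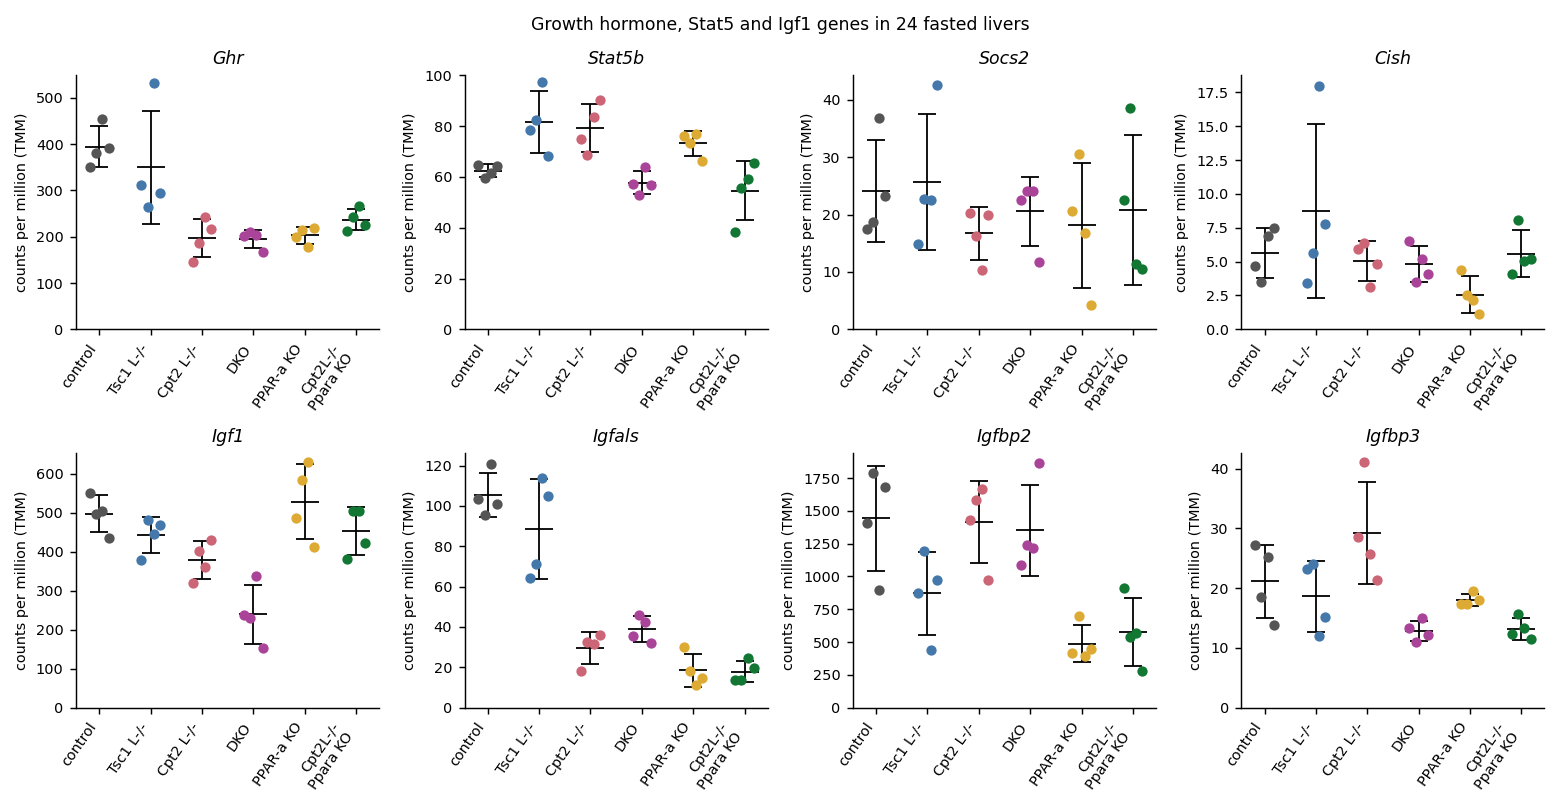
Each point is 1 liver library, with the gene's TMM-normalised CPM on the vertical axis (starting at 0) and the 6 genotypes on the horizontal axis; bars give the mean ± SD of 4 libraries. Ghr sat between 145 and 267 CPM in every library of the 4 genotypes lacking Cpt2 or Ppara and at 263 CPM or more in all control and Tsc1 L-/- libraries, so that only the top of the one range met the bottom of the other.

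Ghr (chr15:3317760-3583492, minus strand; coordinates of the deposited table, GRCm38), which encodes the receptor, was about 2-fold lower in each of the Cpt2 L-/-, DKO and PPAR-a KO groups than in control livers. The control libraries held 350.5, 381, 455 and 393 CPM. The Cpt2 L-/- libraries held 145, 186, 242 and 216 CPM, the DKO libraries 201, 211, 203 and 168 CPM, and the PPAR-a KO libraries 199.9, 215, 178 and 218 CPM. None of these 12 libraries reached the lowest control. The log2 fold change was -1.003 ± 0.19 (SE, adjusted p = 0.000762) in Cpt2 L-/- livers, -0.99 ± 0.19 (adjusted p = 0.000677) in DKO livers and -0.97 ± 0.15 (adjusted p = 0.00190) in PPAR-a KO livers, where it was -0.96 without replicate 1 (adjusted p = 0.00334).

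Loss of Tsc1 was not followed by a detectable shift of Ghr. The Tsc1 L-/- libraries held 311, 263, 531 and 295 CPM, a spread that covered the control range on both sides, with replicate 3 the highest of all 24 libraries. The log2 fold change against control was -0.17 (95% interval -0.57 to 0.24, adjusted p = 0.682) and -0.44 without that replicate. DKO livers differed from Cpt2 L-/- livers by 0.01 on the log2 scale (95% interval -0.40 to 0.41, adjusted p = 0.982) and were lower than Tsc1 L-/- livers, at -0.83 ± 0.19 (adjusted p = 0.00321).

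Loss of Cpt2 and of Ppara did not add up in Ghr. The Cpt2L-/- Ppara KO libraries held 213, 242, 267 and 226 CPM, close to the groups lacking 1 of the genes. The interaction, which is the log2 ratio of Cpt2L-/- Ppara KO to PPAR-a KO livers minus that of Cpt2 L-/- to control livers, was 1.24 ± 0.24 (95% interval 0.72 to 1.75, adjusted p = 0.00258). It was one of 4 interactions called among the 8 genes, where 24% of all genes were called. On leaving out each library in turn it ranged from 1.08 to 1.35 and kept an adjusted p of at most 0.00751, and without replicate 1 of both Ppara groups it was 1.28 (adjusted p = 0.00169).

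In bulk liver, fewer cells of a type and less RNA per cell cannot be told apart, which bears on every fall in DKO livers. Of 8 hepatocyte markers, 4 were lower in DKO than in control livers, 50% beside 36.4% of all genes, among them Alb, the serum albumin gene, at 12613 ± 1768 CPM against 43887 ± 3809 CPM. Their summed level ranged from 33678 to 42729 CPM in DKO livers and from 70763 to 94165 CPM in control livers. Of 8 stellate cell markers 7 were lower, of 8 Kupffer cell markers 6 were lower and Cd68 higher, and of 8 endothelial markers 4 were lower, which is 87.5%, 87.5% and 50% beside the same 36.4%. Their summed levels were 255 to 321, 139.8 to 250.2 and 216 to 370.4 CPM in DKO livers, against 359.8 to 522, 186 to 284 and 364 to 404 CPM in control livers. In Cpt2 L-/- livers 2 of the hepatocyte and 3 of the stellate markers were lower than in control livers, with summed levels of 42867 to 67065 and 298 to 411 CPM, and 1 Kupffer and 1 endothelial marker were higher, shares of 25.0%, 37.5%, 12.5% and 12.5% beside 31% of all genes. In PPAR-a KO livers 1 hepatocyte marker was higher (69078 to 102815 CPM in sum), 1 stellate marker was lower, 1 Kupffer marker was higher and 2 lower, and 1 endothelial marker was higher and 1 lower, shares of 12.5%, 12.5%, 37.5% and 25.0% beside 27.5%. Without PPAR-a KO replicate 1 these counts were the same except that 0 Kupffer markers were higher. Of 5 cholangiocyte markers 1 was lower in Cpt2 L-/- and in DKO livers and 1 higher in PPAR-a KO livers, and 1 lymphocyte marker was lower in DKO and in PPAR-a KO livers. No marker of these lists was at 0 in all libraries of a group, and their part in the results was not tested.

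Stat5b (chr11:100780731-100850724, minus strand) encodes the main growth hormone-responsive Stat5 protein of liver. It was higher with loss of Tsc1 or of Cpt2, but not with loss of both. Control libraries were tightly grouped at 64.9, 59.5, 61.5 and 64.3 CPM. Tsc1 L-/- libraries held 78.4, 82.3, 97.4 and 68.3 CPM and Cpt2 L-/- libraries 75.0, 68.5, 83.5 and 90.3 CPM, every one above every control. DKO libraries returned to 57.2, 53.0, 64.0 and 56.7 CPM, inside and just below the control range.

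The rise of Stat5b was 0.39 ± 0.11 on the log2 scale in Tsc1 L-/- livers (adjusted p = 0.0483) and 0.34 ± 0.11 in Cpt2 L-/- livers (adjusted p = 0.0302). DKO livers were lower than Cpt2 L-/- livers, at -0.44 ± 0.11 (adjusted p = 0.0132), and than Tsc1 L-/- livers, at -0.49 ± 0.11 (adjusted p = 0.0032). The interaction of the Tsc1 and Cpt2 deletions was -0.83 ± 0.16 (adjusted p = 0.0121), and Stat5b was the 1 gene of the 8 with this interaction called, where 2.38% of all genes were called. That share ranged from 1.08% without DKO replicate 2 to 2.91% without Tsc1 L-/- replicate 3, and was 0.465% with all 24 libraries in 1 fit. The interaction call was lost with all 24 libraries in 1 fit (-0.84, adjusted p = 0.0656) and was kept on leaving out each library in turn. The call in Tsc1 L-/- livers is marginal, since it was lost in 7 of 8 refits that left out 1 control or Tsc1 L-/- library and its adjusted p reached 0.194 with all 24 libraries in 1 fit. The call in Cpt2 L-/- livers was lost without replicate 4 of that group (0.27, adjusted p = 0.102), without the low-count filter (adjusted p = 0.0538) and with all 24 libraries in 1 fit (adjusted p = 0.0978).

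The effect of Cpt2 loss on Stat5b also differed with Ppara status. PPAR-a KO libraries held 76.0, 73.5, 76.9 and 66.3 CPM, all above the controls, though the difference of 0.22 (95% interval -0.04 to 0.48) missed the threshold at an adjusted p of 0.184. Cpt2L-/- Ppara KO libraries held 38.4, 55.5, 59.2 and 65.6 CPM, and replicate 1, the library that stood apart, was the lowest of all 24. The interaction was -0.75 ± 0.22 (adjusted p = 0.0207), and without that replicate it was -0.62 ± 0.18 (adjusted p = 0.0187). Stat5a, the neighbouring and nearly identical gene, was higher in Cpt2 L-/- livers (20.9 ± 2.07 against 11.2 ± 2.30 CPM in controls, log2 fold change 0.90 ± 0.18, adjusted p = 0.000868) and in DKO livers (19.8 ± 1.02 CPM, 0.84 ± 0.18, adjusted p = 0.00125). Reads that fit both genes could have been shared between them or dropped, so their split is uncertain.

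**Figure D2:**
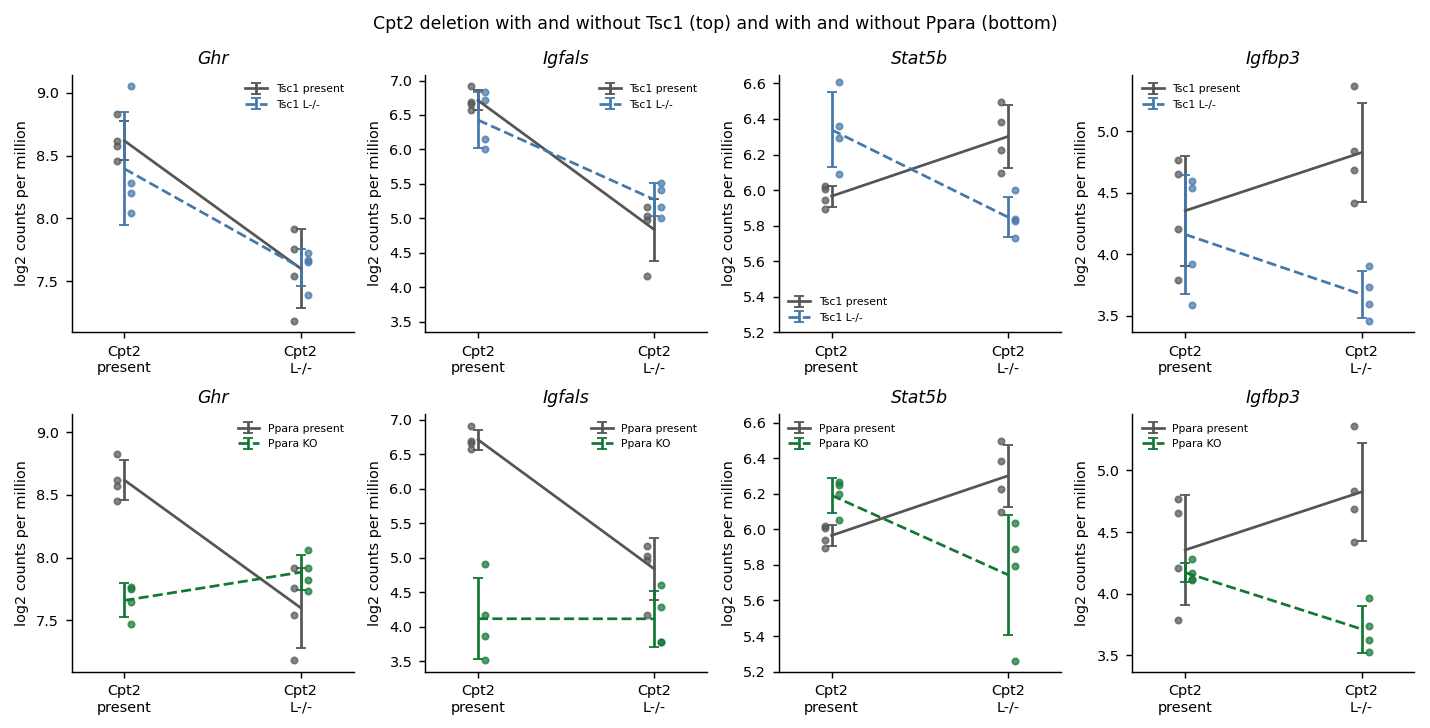
Points are libraries on a log2 CPM axis and lines join group means (± SD, n = 4) without and with the Cpt2 deletion; dashed lines carry the Tsc1 deletion (top) or the Ppara knockout (bottom). The lines cross for Stat5b in both rows, and for Ghr and Igfals the fall with Cpt2 loss seen with Ppara present is not seen in the Ppara knockout, with interactions of 1.24 and 1.79.

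Socs2 (chr10:95385362-95417180, minus strand), a cytokine-signalling suppressor that damps the growth hormone receptor, varied more between livers of a genotype than between genotypes. Control libraries held 17.5, 18.7, 36.9 and 23.2 CPM and Tsc1 L-/- libraries 14.9, 22.7, 22.6 and 42.5 CPM. Cpt2 L-/- libraries held 20.3, 16.3, 10.3 and 19.9 CPM, and DKO libraries 22.6, 24.2, 24.1 and 11.6 CPM. PPAR-a KO libraries ran from 4.32 to 30.6 CPM and Cpt2L-/- Ppara KO libraries from 10.4 to 38.7 CPM. All 6 ranges overlapped, and the group means differed by at most 1.54-fold. Socs2 was called in 0 of 10 comparisons by edgeR or DESeq2, and its unadjusted p was under 0.05 in 0 of them by either tool. The intervals were wide: against control, Cpt2 L-/- livers lay at -0.53 (95% interval -1.26 to 0.19) and PPAR-a KO livers at -0.43 (-1.47 to 0.62), so a 2-fold fall lies inside both intervals.

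Cish (chr9:107296026-107302784, plus strand), another Stat5-induced inhibitor, was the least abundant of the 8 genes, with 17 to 282 counts per library. Control libraries held 4.71, 3.51, 6.89 and 7.497 CPM. PPAR-a KO libraries held 4.42, 2.53, 2.15 and 1.17 CPM, of which 3 were below every control. The log2 fold change of -1.13 ± 0.40 missed the threshold (adjusted p = 0.0591), and the difference passed it without replicate 1 of the PPAR-a KO group (-1.55, adjusted p = 0.0148), with all 24 libraries in 1 fit (adjusted p = 0.0426) and with DESeq2 (adjusted p = 0.0294). Cpt2L-/- Ppara KO libraries, at 4.11, 8.07, 5.03 and 5.17 CPM, were back at the control level, 1.11 ± 0.40 above PPAR-a KO livers on the log2 scale (adjusted p = 0.103).

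In the other groups Cish moved with single libraries. Tsc1 L-/- libraries held 3.46, 5.602, 17.98 and 7.81 CPM, and the mean difference of 0.62 (adjusted p = 0.417) became -0.01 without replicate 3. Cpt2 L-/- libraries (3.12 to 6.34 CPM) and DKO libraries (3.50 to 6.50 CPM) lay inside or just below the control range. Cish had an unadjusted p under 0.05 in 3 of the 10 comparisons, and an adjusted p under 0.05 in 0 by edgeR and in 1 by DESeq2.

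Replicate 3 of the control group and replicate 3 of the Tsc1 L-/- group differed from their groups in several of these genes at once. Both were the highest of their group in Ghr (455 and 531 CPM) and in Igfals (121 and 114 CPM). Both were the lowest of their group in Igfbp2 (893 and 439 CPM) and in Igfbp1 (84.6 and 161 CPM). Without both libraries 3 of the genes were called in Cpt2 L-/- against control livers beside 28.6% of all genes, 3 instead of 4 in DKO against control livers beside 31.9%, and 4 in DKO against Tsc1 L-/- livers beside 27.3%. In Tsc1 L-/- against control livers edgeR then called 0 instead of 1, beside 4.46%, and 3 had an unadjusted p under 0.05.

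Igf1 (chr10:87858265-87937042, plus strand), the secreted growth factor, was lower in DKO livers than in control, Tsc1 L-/- and Cpt2 L-/- livers. Control libraries held 551, 495, 505 and 435 CPM, Tsc1 L-/- libraries 378, 480.0, 445 and 467 CPM, and Cpt2 L-/- libraries 318, 401, 359.7 and 430.2 CPM. DKO libraries held 237, 230.2, 338 and 154 CPM, 3 of them below every library of the other groups. The log2 fold change of DKO livers was -1.03 ± 0.18 against control (adjusted p = 0.000246), -0.87 ± 0.18 against Tsc1 L-/- (adjusted p = 0.00118) and -0.63 ± 0.18 against Cpt2 L-/- livers (adjusted p = 0.0205). The fall against Cpt2 L-/- livers lost its call without DKO replicate 4 (-0.47, adjusted p = 0.0512), without DKO replicate 2 (adjusted p = 0.0591) or without Cpt2 L-/- replicate 4 (adjusted p = 0.0623). Of the 8 hepatocyte markers 4 fell in DKO livers too, Alb with a log2 fold change of -1.78 ± 0.26 against control.

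Igf1 did not pass the test in any single-gene deletion. The difference was -0.16 in Tsc1 L-/- livers (adjusted p = 0.668), -0.40 in Cpt2 L-/- livers (adjusted p = 0.097), whose 4 libraries were all below the lowest control, and 0.08 in PPAR-a KO livers (adjusted p = 0.753). The interaction of the Tsc1 and Cpt2 deletions was -0.47 (95% interval -1.002 to 0.06, adjusted p = 0.328), so a larger effect of the 2 deletions together than the sum of each was not shown. PPAR-a KO libraries held 487, 584, 629 and 413 CPM and Cpt2L-/- Ppara KO libraries 382, 503, 504 and 423 CPM. In PPAR-a KO livers, where Ghr was 1.95-fold and Igfals 5.69-fold lower than in control livers, the 95% interval of the Igf1 difference was -0.31 to 0.47.

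Igfals (chr17:24878770-24882008, plus strand), which encodes the acid-labile subunit, had the widest range of group means of the 8 genes, 5.90-fold from highest to lowest. Control libraries held 103, 95.6, 121 and 101 CPM. Cpt2 L-/- libraries held 18.01, 32.7, 31.4 and 36.0 CPM and DKO libraries 35.7, 45.8, 42.6 and 32.1 CPM. PPAR-a KO libraries held 29.9, 17.997, 11.4 and 14.6 CPM and Cpt2L-/- Ppara KO libraries 13.8, 13.8, 24.4 and 19.4 CPM. Every library of these 4 groups was below every control and every Tsc1 L-/- library.

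The log2 fold change of Igfals was -1.84 ± 0.21 in Cpt2 L-/- livers (adjusted p = 8.31e-06), -1.41 ± 0.21 in DKO livers (adjusted p = 5.86e-05) and -2.51 ± 0.28 in PPAR-a KO livers (adjusted p = 0.000276). Without replicate 1 of the PPAR-a KO group the last value was -2.85 (adjusted p = 8.65e-05). Tsc1 L-/- libraries, at 64.1, 71.2, 114 and 105 CPM, overlapped the controls (-0.24, 95% interval -0.67 to 0.18, adjusted p = 0.545). DKO livers were at -1.17 ± 0.21 against Tsc1 L-/- livers (adjusted p = 0.000383) and at 0.43 ± 0.21 against Cpt2 L-/- livers (adjusted p = 0.161). With Ppara absent, loss of Cpt2 shifted Igfals by -0.05 (95% interval -0.75 to 0.65, adjusted p = 0.935). The shift was 0.40 (adjusted p = 0.378) without replicate 1 of both Ppara groups. The interaction was 1.79 ± 0.39 (adjusted p = 0.00441) and 2.24 ± 0.33 (adjusted p = 0.000309) without those replicates.

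The promoters of Cish and Igfals are printed because these genes are classic Stat5 targets and each holds the Stat motif TTCNNNGAA in a RefSeq window from 250 bases before to 50 after a start site (GRCm38.p6). The motif reads the same on both strands. It was found in 3 of 12 windows of the 7 members with a window (Ghr, Igf1, Igfals, Cish, Stat5b, Igfbp2 and Igfbp3), and in 8.30% of all 32851 windows. Capitals mark the motif.
Cish, chr9:107296409-107296708, plus strand: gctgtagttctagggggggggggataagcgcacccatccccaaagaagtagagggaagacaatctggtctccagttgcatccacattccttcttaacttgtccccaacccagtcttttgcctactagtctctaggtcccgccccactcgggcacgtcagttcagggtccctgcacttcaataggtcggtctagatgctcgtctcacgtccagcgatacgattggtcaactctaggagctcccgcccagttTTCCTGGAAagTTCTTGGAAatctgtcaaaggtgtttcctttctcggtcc
Igfals, chr17:24877594-24877893, plus strand: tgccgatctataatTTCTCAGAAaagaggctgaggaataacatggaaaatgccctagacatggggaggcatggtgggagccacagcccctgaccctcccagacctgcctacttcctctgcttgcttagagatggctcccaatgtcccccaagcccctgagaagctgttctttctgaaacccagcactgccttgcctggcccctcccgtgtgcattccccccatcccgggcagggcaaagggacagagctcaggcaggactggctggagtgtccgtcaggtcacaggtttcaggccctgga
Igfals, chr17:24877981-24878280, plus strand: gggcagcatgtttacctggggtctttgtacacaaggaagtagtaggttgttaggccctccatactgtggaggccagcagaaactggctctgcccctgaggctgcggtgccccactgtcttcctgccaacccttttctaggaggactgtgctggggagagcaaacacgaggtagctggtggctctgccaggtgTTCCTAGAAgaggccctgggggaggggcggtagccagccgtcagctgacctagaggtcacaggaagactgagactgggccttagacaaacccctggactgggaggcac

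In Cish the matches TTCCTGGAA and TTCTTGGAA begin at positions 1 and 12 counted from the start site. In the Igfals windows TTCTCAGAA begins at position -236 and TTCCTAGAA at position -58, and the other Igfals window, nearest the start of the gene in the deposited table, held no match. Igfals fell in Cpt2 L-/- livers, where the Cish difference was -0.17 (95% interval -1.04 to 0.70). A match is a run of letters and does not show binding.

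Igfbp2 (chr1:72824503-72852474, plus strand), a hepatic binding protein that carries Igf1, was the most abundant of the 8 genes at 242 to 1532 FPKM (the deposited unit, which scales counts by library total and gene length). It was lower in the livers lacking Ppara. Control libraries held 1410.1, 1789.6, 893 and 1679 CPM. PPAR-a KO libraries held 419, 699, 391 and 445 CPM, all below the lowest control, at a log2 fold change of -1.56 ± 0.27 (adjusted p = 0.00271), and of -1.50 without replicate 1 (adjusted p = 0.00586). Cpt2L-/- Ppara KO libraries held 910.0, 537, 566 and 279 CPM, and all were below the Cpt2 L-/- libraries at 1429, 1586, 1669 and 970.4 CPM (-1.31 ± 0.34, adjusted p = 0.0319). Without replicate 1 of the Cpt2L-/- Ppara KO group the difference was -1.62 ± 0.28 (adjusted p = 0.00174). It lost its call on leaving out any 1 of 6 other libraries, with adjusted p up to 0.098 in those refits. In that comparison 4 of 5 red cell markers were higher, beside 13% of all genes called (2 of 5 without replicate 1 of the Cpt2L-/- Ppara KO group, beside 18%), with summed levels of 389 to 1053 CPM against 154 to 401 CPM, and their part was not tested.

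Loss of Cpt2 left Igfbp2 near its control level, where the difference was -0.03 (95% interval -0.61 to 0.55) for the Cpt2 L-/- group and -0.08 (-0.66 to 0.51) for the DKO group. Tsc1 L-/- libraries held 876, 1195, 439 and 974.8 CPM and DKO libraries 1089, 1243, 1217 and 1863 CPM. The difference of Tsc1 L-/- livers from control was -0.72 ± 0.28, which did not pass over all genes (adjusted p = 0.136).

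Igfbp3 (chr11:7206086-7213923, minus strand) encodes the main carrier of Igf1 in blood and in liver is made largely outside hepatocytes. It was lower in both double-deletion groups than in Cpt2 L-/- livers. Cpt2 L-/- libraries held 28.6, 41.2, 25.8 and 21.3 CPM. DKO libraries held 13.3, 11.02, 14.96 and 12.1 CPM and Cpt2L-/- Ppara KO libraries 12.3, 15.6, 13.3 and 11.5 CPM, each below every Cpt2 L-/- library. The log2 difference was -1.16 ± 0.25 for DKO livers (adjusted p = 0.00501) and -1.15 ± 0.22 for Cpt2L-/- Ppara KO livers (adjusted p = 0.00817), where it was -1.12 without replicate 1 (adjusted p = 0.00425). In the same comparison of DKO with Cpt2 L-/- livers, 5 of 8 Kupffer markers were lower and 1 higher, and 2 of 8 endothelial markers and 1 of 8 stellate markers (Lrat, -1.16 ± 0.27, adjusted p = 0.00751) were lower, which is 75.0%, 25.0% and 12.5% beside 18.3% of all genes. Their part was not tested. In Cpt2L-/- Ppara KO against Cpt2 L-/- livers edgeR called 0 of the 8 Kupffer, 8 endothelial and 8 stellate markers, of which 2, 0 and 1 had an unadjusted p under 0.05, beside 13% of all genes called. With Cpt2L-/- Ppara KO replicate 1 left out, 1 Kupffer marker was higher and 1 stellate marker lower, beside 18%.

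Against control, Igfbp3 fell in DKO livers by 0.71 ± 0.25 on the log2 scale (adjusted p = 0.0367). This call is weak: control libraries spread from 13.8 to 27.2 CPM, 1 of them inside the DKO range, and it was lost without control replicate 1 or 3 or without DKO replicate 1, 2 or 4. Tsc1 L-/- libraries held 23.2, 24.1, 12.05 and 15.2 CPM and PPAR-a KO libraries 17.4, 17.3, 19.5 and 17.98 CPM, both overlapping the controls. The interaction of Cpt2 and Ppara loss was -0.90 ± 0.31 (adjusted p = 0.0419). It was lost on leaving out any 1 of 10 of the 16 libraries, with values from -0.69 to -0.96 in those refits, and was -0.89 without replicate 1 of both Ppara groups (adjusted p = 0.0630).

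**Figure D3:**
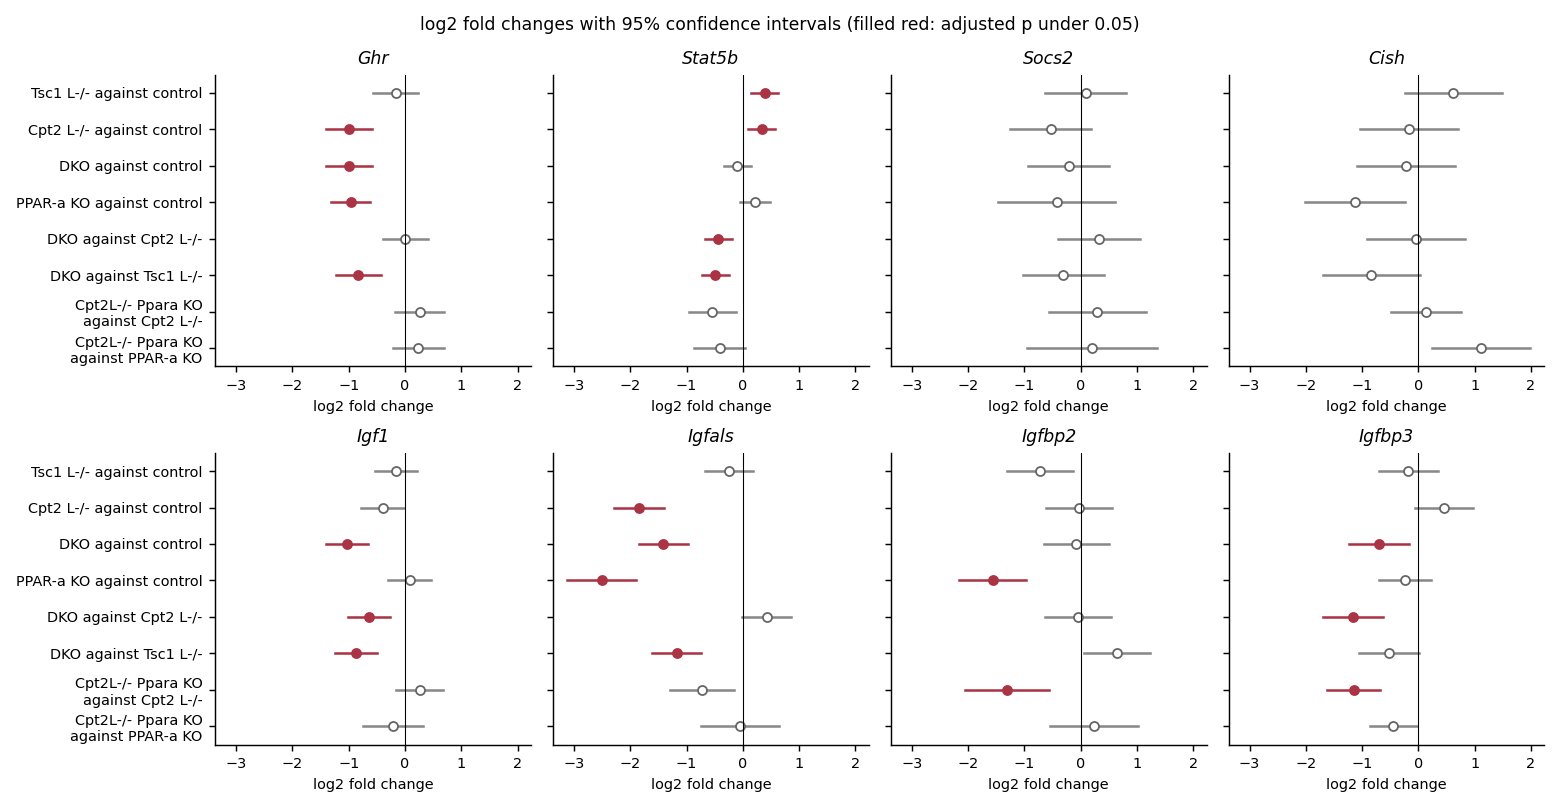
Points give edgeR log2 fold changes on the horizontal axis with 95% confidence intervals, 1 row per pairwise comparison; filled red points have an adjusted p under 0.05 over all genes tested. Filled points left of 0 stand in the same 4 rows for Igfals and Ghr and in the 3 rows of DKO livers for Igf1, and Socs2 and Cish have no filled point.

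The order of the 6 group means shows how few neighbouring genotypes separate. Of 5 neighbouring pairs per gene, libraries overlapped in all 5 for Ghr, Igf1, Socs2, Cish and Igfbp2. The exceptions were Igfals, where the lowest Tsc1 L-/- library was above every DKO library, Stat5b, where PPAR-a KO livers were above control livers, and Igfbp3, where PPAR-a KO livers were above Cpt2L-/- Ppara KO livers.

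The make-up of the Igfbp transcripts as a family is described here without a test. The summed FPKM of Igfbp1 to Igfbp7 was 1887 ± 263.9 in control livers and ranged from 1736 ± 261 in PPAR-a KO to 2095 ± 460 in DKO livers, with single libraries from 1233 to 2747. In control livers Igfbp2 made up 54.5% ± 6.04 of that sum, Igfbp4 33.3% ± 5.76 and Igfbp1 7.28% ± 3.23 (SD, n = 4). Igfbp1, a hormone-controlled binding protein, made up 22.6% ± 13.4 in Tsc1 L-/-, 21.5% ± 7.71 in Cpt2 L-/- and 30.7% ± 6.72 in DKO livers. It made up 43.3% ± 10.5 in PPAR-a KO and 49.95% ± 6.77 in Cpt2L-/- Ppara KO livers, where Igfbp2 was 20.6% ± 5.83 and 23.0% ± 11.4. Without replicate 1 of both groups (n = 3) Igfbp1 was 42.9% ± 12.8 and 51.0% ± 7.90, and Igfbp2 21.2% ± 7.002 and 17.6% ± 4.12. Igfbp4 was 16.5% ± 2.52 in Cpt2 L-/- and 13.0% ± 4.02 in DKO livers. Igfbp3 stayed under 1% of the sum in every library.

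**Figure D4:**
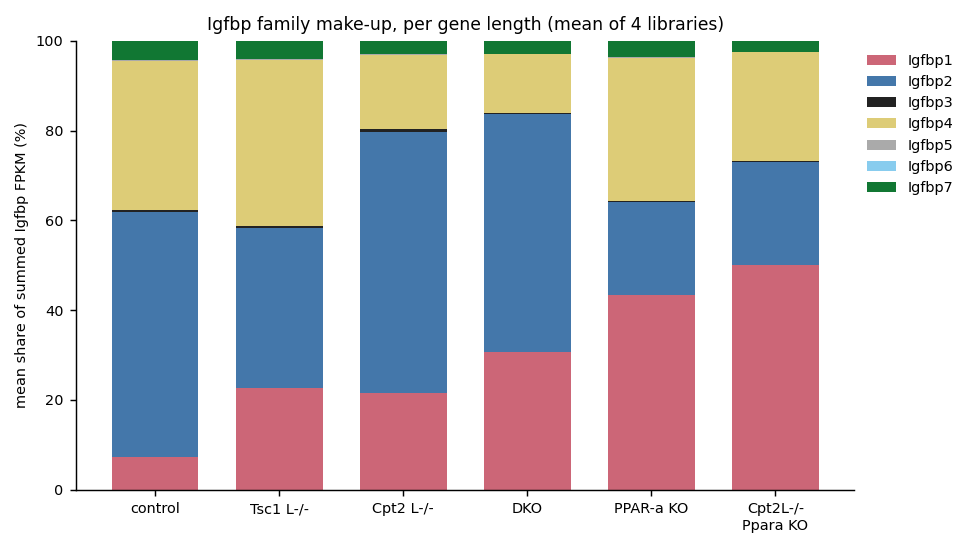
Stacked bars (vertical axis, percent from 0 to 100) show each Igfbp gene's mean share of the summed FPKM of Igfbp1 to Igfbp7 in 4 libraries per genotype. Igfbp2 is the largest part in control, Cpt2 L-/- and DKO livers at 53.0% or more, and Igfbp1 is the largest in both groups lacking Ppara.

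Of 15 other IGF system genes tested, 2 were lower in Cpt2 L-/- than in control livers, with a median log2 change of -0.43 beside -0.02 over all genes. The list was called in 13.3%, below the 31% of all genes. Those called were Igfbp4 (1159 ± 196 against 2485 ± 202 CPM, -1.10 ± 0.15, adjusted p = 2.54e-05) and Igfbp7 (-0.58 ± 0.11, adjusted p = 0.000803). In DKO livers 7 were lower and 2 higher, with a median of -0.57 beside 0.02, and 60.0% called beside 36.4%. Without replicate 3 of the control and Tsc1 L-/- groups 3 were lower and 2 higher, which is 5 of 15 beside 31.9% of all genes. Igfbp1 was higher at 937 ± 369 against 234 ± 133 CPM (2.02 ± 0.63, adjusted p = 0.0235), and Igfbp4 fell by 1.42 ± 0.15. In PPAR-a KO livers 3 of 14 were higher, 21.4% beside 27.5% of all genes (5 of 15 without replicate 1, beside 31.7%), with Igfbp1 at 1244 ± 498 CPM (2.41 ± 0.45, adjusted p = 0.004, and 2.44 without replicate 1). In Tsc1 L-/- livers 1 was higher and 1 lower, 13.3% beside 6.64%, with Igf2bp3, an RNA-binding protein gene, at 3.53 ± 2.55 against 0.399 ± 0.386 CPM (3.12 ± 0.63, adjusted p = 0.00703).

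Of 19 other genes of the growth hormone receptor signalling list, 4 were higher and 3 lower in Cpt2 L-/- than in control livers (median -0.09 beside -0.02 over all genes), which is 36.8% of the list beside 31% of all genes. Prlr, the prolactin receptor gene, was lower at 29.9 ± 5.66 against 69.6 ± 11.7 CPM (-1.23 ± 0.16, adjusted p = 1.6e-05). Lepr, the leptin receptor gene, was higher at 115 ± 51.1 against 12.5 ± 7.23 CPM (3.20 ± 1.02, adjusted p = 0.0306). Onecut1, a liver transcription factor gene, was lower at 2.49 ± 0.881 against 15.3 ± 11.5 CPM (-2.64 ± 0.81, adjusted p = 0.0257).

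In DKO livers 2 of the 19 were higher and 8 lower (median -0.19 beside 0.02), 52.6% of the list beside 36.4% of all genes, led downwards among those of at least 1 CPM by Onecut1 (-3.03 ± 0.84, adjusted p = 0.0129) and Lifr, the leukaemia inhibitory factor receptor gene (67.0 ± 5.68 against 178 ± 23.0 CPM, -1.39 ± 0.14, adjusted p = 1.44e-06). In PPAR-a KO livers 3 were higher and 1 lower, 21.1% of the list beside 27.5% of all genes (4 and 3 without replicate 1, beside 31.7%), Prlr again at 28.2 ± 17.3 CPM (-1.31 ± 0.34, adjusted p = 0.0189), while Stat3 was higher at 206 ± 82.3 against 118 ± 13.0 CPM (0.80 ± 0.25, adjusted p = 0.0373). Without replicate 1 of the PPAR-a KO group Prlr was at -1.83 (adjusted p = 0.000328) and Stat3 at 0.93 (adjusted p = 0.0203). In Tsc1 L-/- livers edgeR called 0 of the 19, beside 6.64% of all genes, and 3 had an unadjusted p under 0.05. Jak2, named for its role and not by rule, was 19.2 ± 2.79 CPM in control livers and not called against control in the 4 groups compared with it, with adjusted p from 0.0864 to 0.635.

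Growth hormone pulses set sex differences of the male liver. Male-biased genes were therefore counted, but whether they follow growth hormone in these genotypes was not tested. Of 18 such genes, 4 were lower and 1 higher in Tsc1 L-/- livers (median -0.51 beside 0.01 over all genes), 6 and 1 in Cpt2 L-/- livers (median -0.62 beside -0.02) and 9 and 1 in DKO livers (median -0.89 beside 0.02). In PPAR-a KO livers 2 were lower and 5 higher (median 0.30 beside 0.02). Those called were 27.8%, 38.9%, 55.6% and 38.9% of the list, beside 6.64%, 31%, 36.4% and 27.5% of all genes. Susd4 was 43.2 ± 12.6 CPM in control, 8.53 ± 3.96 in Tsc1 L-/-, 9.66 ± 4.06 in Cpt2 L-/- and 2.86 ± 0.862 in DKO livers, with log2 fold changes of -2.34 ± 0.40, -2.16 ± 0.39 and -3.90 ± 0.44 against control (adjusted p = 0.00292, 0.00086 and 1.21e-05). Slco1a1, an organic anion transporter gene, was 65.6 ± 17.5 CPM in Cpt2 L-/- against 282 ± 51.5 CPM in control livers (-2.11 ± 0.26, adjusted p = 2.09e-05). Cyp4a12b was the 1 higher gene in Cpt2 L-/- livers (136 ± 30.7 against 51.3 ± 26.7 CPM, 1.41 ± 0.45, adjusted p = 0.0287) and in DKO livers (139.5 ± 18.9 CPM, 1.46 ± 0.45, adjusted p = 0.0212).

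Among male-biased genes, Elovl3, a fatty acid elongase gene, was lower in Tsc1 L-/- livers at 12.9 ± 11.9 against 71.7 ± 10.3 CPM (-2.46 ± 0.48, adjusted p = 0.00799). In PPAR-a KO livers Serpina12 was higher at 73.6 ± 14.4 against 5.33 ± 1.15 CPM (3.78 ± 0.21, adjusted p = 1.91e-05) and Selenbp2 at 578 ± 145 against 30.0 ± 38.6 CPM (4.26 ± 0.80, adjusted p = 0.00481). Both lower genes of that group were Cyp4a12a (124 ± 78.8 against 361 ± 45.6 CPM, -1.55 ± 0.36, adjusted p = 0.0107) and Elovl3 (-0.59 ± 0.20, adjusted p = 0.0460), at -1.37 and -0.75 without replicate 1. Adding the Cpt2 deletion to Ppara loss was accompanied by a fall of 3 of the 18, where 0.868% of all genes were called, and of 8 without replicate 1 of both Ppara groups, where 4.72% were called. That background moved from 0.0154% without PPAR-a KO replicate 3 to 5.59% without PPAR-a KO replicate 1, and was 30.8% with all 24 libraries in 1 fit. Among the 3 were Selenbp2 at 81.8 ± 35.6 CPM (-2.82 ± 0.37, adjusted p = 0.0195) and the steroid hydroxylase gene Cyp7b1 at 91.7 ± 36.0 against 386 ± 43.5 CPM (-2.07 ± 0.29, adjusted p = 0.0201). Without replicate 1 of both Ppara groups Selenbp2 was at -2.69 (adjusted p = 0.00835) and Cyp7b1 at -1.90 (adjusted p = 0.0269). Against control, Serpina12 and Selenbp2 were at 3.75 and 4.39 without PPAR-a KO replicate 1. Several listed genes belong to families with near-identical copies, such as Mup1 and Cyp4a12a, and reads may be split among the copies.

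Of 20 female-biased genes, 8 passed the low-count filter in the libraries of the Tsc1 and Cpt2 comparisons. Against control, 2 of the 8 were lower in Cpt2 L-/- livers and 5 in DKO livers, while edgeR called 0 in Tsc1 L-/- livers, where 3 had an unadjusted p under 0.05. The shares of the list were 25.0%, 62.5% and 0%, beside 31%, 36.4% and 6.64% of all genes. Cux2, a transcription factor gene of female liver, was lower in Cpt2 L-/- livers at 0.575 ± 0.36 against 11.7 ± 7.86 CPM (-4.30 ± 1.06, adjusted p = 0.00816). Of 6 tested in PPAR-a KO against control livers 1 was higher and 1 lower, 33.3% beside 27.5% of all genes. Without replicate 1 it was 1 and 2 of 9, beside 31.7%. Cyp17a1, a steroid hydroxylase gene, was higher at 121 ± 58.2 against 15.1 ± 13.6 CPM (3.01 ± 0.65, adjusted p = 0.00869). Abcd2, a peroxisomal fatty acid transporter gene, was lower at 0.892 ± 0.359 against 48.4 ± 19.6 CPM (-5.73 ± 0.39, adjusted p = 2.94e-05). Both calls were kept without replicate 1 of the PPAR-a KO group, at 2.76 and -5.81. In Cpt2L-/- Ppara KO against Cpt2 L-/- livers 3 of 7 were higher and 1 lower, 57.1% beside 13% of all genes. Without replicate 1 of the Cpt2L-/- Ppara KO group it was 4 and 1 of 7, beside 18%.

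For each of the 8 genes the genes of nearest pattern were sought among 12252 genes of at least 1 CPM, as the root mean square difference between centred log2 group means over the 6 groups. Near Ghr was Tmem176a (0.058), and the closest to Igf1 were Csf3r (0.0754) and Aadac (0.0863), and to Igfals Cyp2d37-ps (0.221) and Lrrc3 (0.251). For Stat5b they were Gab1 (0.0664), an adaptor gene on the signalling list, and Tcf3 (0.0717), and for Igfbp2 Acsf2 (0.107) and Pxmp4 (0.13), an acyl-CoA synthetase gene and a peroxisomal membrane protein gene. For Igfbp3 they were Gm15764 (0.0992) and Agpat6 (0.127), for Cish 2810006K23Rik (0.102) and Cenpj (0.119), and for Socs2 Gpr180 (0.0145) and Smarcal1 (0.0506). Igfals had 0 genes within 0.15, Stat5b had 127 and Socs2 had 249.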

How the data were processed

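RNA was extracted with Trizol from a piece of each liver, and TruSeq stranded mRNA libraries were sequenced as single 75-base reads. The authors deposited 1 table of read counts per gene and 1 of FPKM values per gene, with replicates kept apart. The submitters' processing notes name STAR 2.5, HTSeq 0.6.1, TopHat and Bowtie 0.12.2 and the builds mm8 and mm9, without roles, and the strand setting of the counting is not given in the sources used here. The deposited coordinates of 7 of the 8 genes equal those of GENCODE vM21 on GRCm38. The deposited FPKM equals the count over gene length and library total, within a relative difference of 9.11e-07.

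Differences were tested on the deposited counts with edgeR 4.0.16 (robust quasi-likelihood test, TMM factors, filterByExpr with a minimum count of 10 and a minimum total of 15) and Benjamini-Hochberg adjustment over all 12784 to 13641 genes tested. The Tsc1 and Cpt2 comparisons used 1 fit of 16 libraries, the Ppara comparisons the libraries of the groups compared, and a threshold of 0.05. CPM used TMM factors of all 24 libraries. Intervals use the t quantile of the fit's degrees of freedom. Levels between genes are compared only as FPKM. The test was checked on simulated counts. The 8 genes, the gene lists and the marker lists were chosen with earlier results of these data known. Other genes were named by rule: per list and comparison, up to 2 with the largest rise and 2 with the largest fall, with an adjusted p under 0.05, at least 1 CPM and no overlap between groups, and the 2 genes of nearest pattern. One gene that the rule names is not reported here. Alternatives were DESeq2 1.42.0, RLE factors, no filter, a replicate block, all 24 libraries in 1 fit and each library left out; leaving out library pairs was chosen after seeing the data.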

Additional observations from a re-analysis of the deposited data

Results flagged for a closer look

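Socs2 was 11.65 CPM in replicate 4 of the DKO group, while the other 3 DKO libraries held 22.6 to 24.2 CPM, a gap past Dixon's 95% limit for the range of the group. It was the only such gap among 48 combinations of gene and group tested, and chance gives about 1 in 20.

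A difference of effects between genetic backgrounds was called by edgeR in 5 tests on 4 of the genes. For the interaction of Tsc1 and Cpt2, 12.5% of the genes followed here were called, beside 2.38% of all genes. For that of Cpt2 and Ppara it was 50%, beside 24% of all genes. The log2 effect of Cpt2 loss on Stat5b differed by -0.8265 between livers without and with Tsc1, and by -0.7517 between livers without and with Ppara. The effect of Cpt2 loss without Ppara minus that with Ppara was 1.236 for Ghr, 1.788 for Igfals and -0.9038 for Igfbp3. The Stat5b call with Tsc1 was lost with all 24 libraries in 1 fit (adjusted p = 0.0656). The Igfbp3 call was lost in 10 of 16 refits with 1 library fewer.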

How the results depend on the processing

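Of 80 results, 8 genes in 10 comparisons, 25 were called by edgeR. The share of all genes called ranged from 0.868% to 36.4% over the 10 comparisons. Over DESeq2, RLE factors, no filter, the replicate block and all 24 libraries in 1 fit, 115 of 125 refits kept the call and 10 lost it, and on leaving out each library 208 kept it and 32 lost it. No called result changed direction. Replicate numbers did not pair the libraries: correlations of same-numbered deviations ran from -0.26 to 0.24, with 13 of 60 over 0.1. With 4 libraries a group, low genes such as Cish had wide intervals. The pairs of libraries left out together were chosen after seeing the data, and the cause of the changes below was not tested.

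The 1 gene called in Tsc1 L-/- against control livers became 0 with RLE factors, without the filter, with the replicate block, with all 24 libraries and without replicate 3 of both groups (0 to 1 on leaving out 1 library). The share of all genes called went from 6.64% to 6.55%, 3.48%, 5.92%, 2.86% and 4.46% in that order (4.22% to 6.99% on leaving out 1 library). The 1 called interaction of Tsc1 and Cpt2 became 0 with all 24 libraries, while the share of all genes called went from 2.38% to 0.465%. The 2 called in Cpt2L-/- Ppara KO against Cpt2 L-/- livers became 4 with all 24 libraries and with DESeq2 (1 to 3 on leaving out 1 library), while the share of all genes called went from 13% to 23.2% and 20.1% (4.75% to 19.4%). The 0 called in Cpt2L-/- Ppara KO against PPAR-a KO livers became 2 with all 24 libraries and 1 without replicate 1 of both groups (0 to 1 on leaving out 1 library). Of all genes 0.868% were called there, 30.8% with all 24 libraries, 4.72% without replicate 1 of both groups and 0.0154% to 5.59% on leaving out 1 library. Of all genes 0.868% were called there, 30.8% with all 24 libraries, 4.72% without replicate 1 of both groups and 0.0154% to 5.59% on leaving out 1 library. Of all genes 0.868% were called there, 30.8% with all 24 libraries, 4.72% without replicate 1 of both groups and 0.0154% to 5.59% on leaving out 1 library. Of all genes 0.868% were called there, 30.8% with all 24 libraries, 4.72% without replicate 1 of both groups and 0.0154% to 5.59% on leaving out 1 library. Of all genes 0.868% were called there, 30.8% with all 24 libraries, 4.72% without replicate 1 of both groups and 0.0154% to 5.59% on leaving out 1 library. Of all genes 0.868% were called there, 30.8% with all 24 libraries, 4.72% without replicate 1 of both groups and 0.0154% to 5.59% on leaving out 1 library.

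Uncalled log2 differences near 0 changed sign. With the replicate block, Igfbp2 in Cpt2 L-/- against control livers was 0.041 and Igfals in Cpt2L-/- Ppara KO against PPAR-a KO livers 0.0060. Ghr in DKO against Cpt2 L-/- livers was -0.012 with RLE factors and with DESeq2 and -0.013 with all 24 libraries. Without replicate 3 of the control and Tsc1 L-/- groups, Igfbp3 in Tsc1 L-/- against control was 0.080 (-0.34 to -0.02 on leaving out 1 library), Socs2 in DKO against control 0.078 and the Socs2 interaction of Tsc1 and Cpt2 -0.14. Without replicate 1 of both Ppara groups, Igfals in Cpt2L-/- Ppara KO against PPAR-a KO livers was 0.40, Igfbp2 there -0.14 and the Igfbp2 interaction of Cpt2 and Ppara -0.11.

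On leaving out each library, Socs2 ranged from -0.26 to 0.38 in Tsc1 L-/- against control (0.44, of unchanged sign, without replicate 3 of both groups), from -0.33 to 0.079 in DKO against control, from -0.49 to 0.051 in DKO against Tsc1 L-/-, from -0.086 to 0.58 in the Tsc1 and Cpt2 interaction, from -0.18 to 0.53 in Cpt2L-/- Ppara KO against Cpt2 L-/- and from -0.28 to 0.57 against PPAR-a KO livers. Cish ranged from -0.0077 to 0.89 in Tsc1 L-/- and from -0.31 to 0.038 in Cpt2 L-/- against control, from -0.25 to 0.078 in DKO against Cpt2 L-/- and from -0.080 to 0.26 in Cpt2L-/- Ppara KO against Cpt2 L-/- livers. Igfbp2 ranged from -0.17 to 0.12 in Cpt2 L-/- and from -0.27 to 0.051 in DKO against control, from -0.23 to 0.046 in DKO against Cpt2 L-/-, from -0.085 to 0.45 in Cpt2L-/- Ppara KO against PPAR-a KO and from -0.048 to 0.49 in the Cpt2 and Ppara interaction. Ghr ranged from -0.11 to 0.097 in DKO against Cpt2 L-/-, Igf1 from -0.0014 to 0.18 in PPAR-a KO against control, and Igfals from -0.24 to 0.29 in Cpt2L-/- Ppara KO against PPAR-a KO livers.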
